A study of Mus musculus with 6 samples.

Results

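Macrophages are the main leukocytes of the embryonic heart, and the 34 genes described here are markers of macrophages and of leukocytes at large. A row of the count table was found by symbol for 32 of the 34, out of 15159 rows in all. The chemokine receptor gene Ccr2 and the scavenger receptor gene Cd163 were not analysed here. The cells were embryonic mouse cardiac cells of day 18.5, from a C57BL/6 x 129S4/SvJae background, grown for 4 days on a silicone (PDMS) substrate of 13 kPa. All of them carried an inducible H3.3 histone transgene and all received doxycycline at 2 µg/ml. In the 3 H3WT libraries the transgene was wild-type H3.3, and in the 3 H3K9M libraries it was the mutant with methionine in place of lysine 9, a site whose methylation marks silenced chromatin. Polyadenylated RNA of the whole culture was sequenced, with 55550379 to 67994773 counts in a library. The labels name no cell sorting step. They also do not state that each library is a different animal or culture. The p-values below set the group difference against the spread of these libraries within the groups, which may be only technical. In such a mixed culture fewer cells of a type and less RNA per cell cannot be told apart.

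Heart macrophages descend from yolk sac and fetal precursors and take up residence before birth. The transcription factor PU.1, encoded by Spi1, drives the myeloid programme, and signalling through the CSF1 receptor, encoded by Csf1r, keeps the cells alive. Mature macrophages clear debris through scavenger and Fc receptors and secrete the C1q chains of complement, while lysozyme and the cathepsins work in their lysosomes.

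PU.1 binds purine-rich sites, of which the letters AGGAAGT are a common form. In windows of 250 bases before the gene start, taken from RefSeq on build GRCm38.p6, these letters were found on either strand in 10 of the 26 genes that had a window (11 of 33 windows, as some genes have several starts). Over all 32851 windows of the table, 7.69% held them. The genes were C1qb, C1qc, F13a1, Fcgr1, Hpgds, Lyz1, Lyz2, Mrc1, Pf4 and Ptprc. The longer form GAGGAAGT, which contains AGGAAGT, was present in C1qc, Hpgds and Pf4 (2.44% of all windows), GGGGAAGT in Lcp1 alone (1.24%), and the AP-1 letters TGAGTCA in Cd68 alone (4.46%). The stretches of 4 genes are shown because the results below return to these genes. C1qc follows the pattern that most markers share, Lyz1 and Lyz2 are a pair of lysozyme genes with similar coding sequences and unlike values, and Cx3cr1 departs from the shared pattern. Each runs from 250 to 51 bases before the first RefSeq start listed for the gene, 5′ to 3′ on the strand of the gene. AGGAAGT or its reverse complement is in capitals. By the spans of GENCODE M21 the stretch of Cx3cr1 lies inside the gene and that of C1qc partly inside. The starts of these genes thus differ between the 2 sources, and other starts are not shown. C1qc lies at chr4:136892965-136893164, Lyz2 at chr10:117282323-117282522, Lyz1 at chr10:117292919-117293118 and Cx3cr1 at chr9:120068347-120068546, all on the minus strand.
C1qc: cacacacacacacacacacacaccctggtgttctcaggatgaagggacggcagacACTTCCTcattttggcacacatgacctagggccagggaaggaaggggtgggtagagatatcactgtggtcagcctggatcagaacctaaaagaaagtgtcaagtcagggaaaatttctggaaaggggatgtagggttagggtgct
Lyz2: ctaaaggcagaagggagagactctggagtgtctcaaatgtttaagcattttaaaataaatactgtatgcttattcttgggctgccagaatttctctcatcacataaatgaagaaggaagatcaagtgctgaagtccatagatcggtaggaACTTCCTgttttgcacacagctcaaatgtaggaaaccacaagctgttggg
Lyz1: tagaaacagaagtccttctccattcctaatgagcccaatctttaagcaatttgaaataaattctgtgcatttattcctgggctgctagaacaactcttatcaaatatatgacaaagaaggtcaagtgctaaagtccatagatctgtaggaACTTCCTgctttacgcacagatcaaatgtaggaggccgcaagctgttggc
Cx3cr1: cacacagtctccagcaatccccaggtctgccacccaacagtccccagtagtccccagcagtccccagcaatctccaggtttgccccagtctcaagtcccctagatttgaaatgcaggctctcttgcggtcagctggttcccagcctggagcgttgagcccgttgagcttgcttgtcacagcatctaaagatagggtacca
The first 3 stretches hold 1 match each and that of Cx3cr1 holds 0. A match describes the letters and is no evidence of binding. The letters were found in 10 of 26 genes, while 30 of 32 genes shared the H3WT order described below. A link between the letters and that order was not tested.

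Most of the markers were high in the same libraries and low in the same libraries, and the 3 H3WT libraries lay further apart than the means of the 2 groups did. The CPM of the 32 genes (the count of a gene per 1000000 counts of its library, with totals scaled by edgeR's TMM factors) summed to 1076 in H3WT replicate 1, 640 in H3WT replicate 2 and 401 in H3WT replicate 3. In H3K9M the sums were 513, 634 and 635 CPM for replicates 1, 2 and 3. All 3 H3K9M sums therefore lay between the lowest and the highest H3WT library. The highest H3WT sum was 2.68 times the lowest, against 1.24 times in H3K9M, and without Lyz2, which made up 14.8% to 25.0% of the sum, these ratios were 2.36 and 1.22. The H3WT libraries averaged 706 ± 342 CPM (SD, n = 3) and the H3K9M libraries 594 ± 70.4 CPM, a difference of -0.25 on the log2 scale that turned to 0.19 without H3WT replicate 1.

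**Figure D1:**
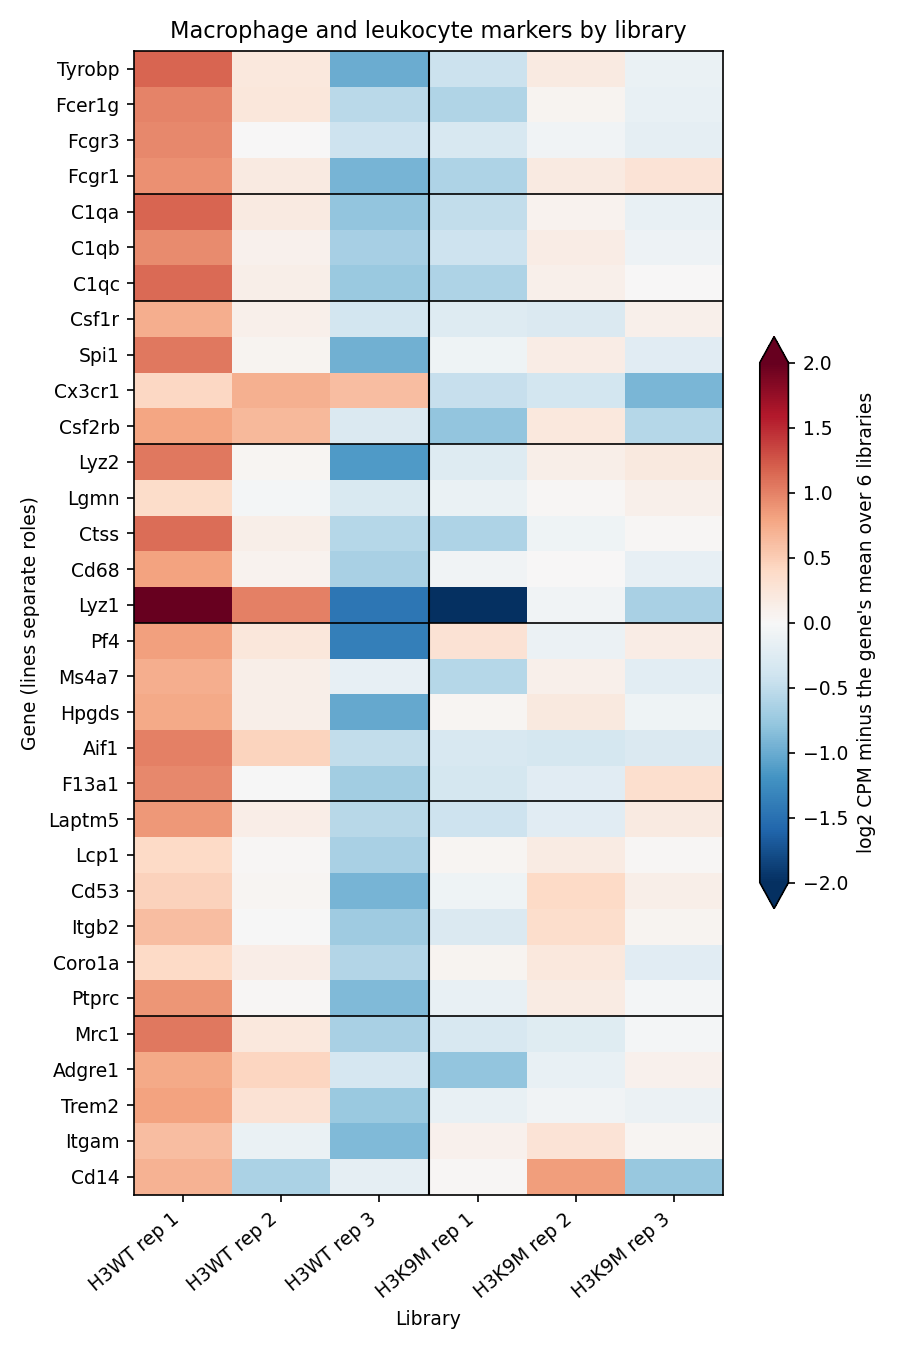
Level of each of the 32 marker genes (rows, grouped by role) in each of the 6 libraries (columns), as log2 CPM minus the mean of that gene over the 6 libraries; red is above and blue below that mean. The column of H3WT replicate 1 is red for every gene and is the highest of the 6 for 30 of 32, and the row of Cx3cr1 is red in all 3 H3WT libraries.

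Taken gene by gene, H3WT replicate 1 was the highest of all 6 libraries for 30 of 32 genes, where 22.9% of the 14758 tested genes had their highest value there. Cd14 and Cx3cr1 were the exceptions. H3WT replicate 3 was the lowest H3WT library for the same 30 genes, against 37.3% of tested genes. For 24 genes all 3 H3K9M values lay between these extremes, as they did for 6.19% of tested genes. The median SD of log2 CPM within H3WT was 0.76 over the 32 genes and 0.16 over all tested genes. Within H3K9M it was 0.27 over the 32 genes and 0.15 over all tested genes. The SD was larger in H3WT than in H3K9M for 30 of the 32 genes and for 53.0% of tested genes. Across the 32 genes the median ratio of H3WT replicate 1 to H3WT replicate 3 was 2.86, and all but Cx3cr1 were higher in replicate 1.

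None of the 32 genes passed the comparison of H3K9M with H3WT in edgeR's quasi-likelihood test at an adjusted p under 0.05, where 0.935% of tested genes were called higher and 1.05% lower. Before adjustment, 2 had a p under 0.05, Cx3cr1 and Lyz1, both lower in H3K9M, where 8.61% of tested genes were lower at that level. DESeq2 called 1 marker lower, Cx3cr1, and 0 higher, beside 3.84% and 3.35% of its genes, and limma-voom called 0, beside 0.759% lower and 0.745% higher. Negative log2 fold changes were found for 27 genes and positive ones for 5, with a median of -0.36, beside 50.5% negative and a median of -0.00245 over all tested genes. Without H3WT replicate 1, 10 were negative and 22 positive, with a median of 0.15. Under limma-voom 22 were negative, with a median of -0.18. Without H3WT replicate 3, 31 were negative, with a median of -0.67. The sign of most group differences depended on whether H3WT replicate 1 was included. The adjusted p-values of edgeR lay between 0.0661 and 0.997 in the fit of all libraries.

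**Figure D2:**
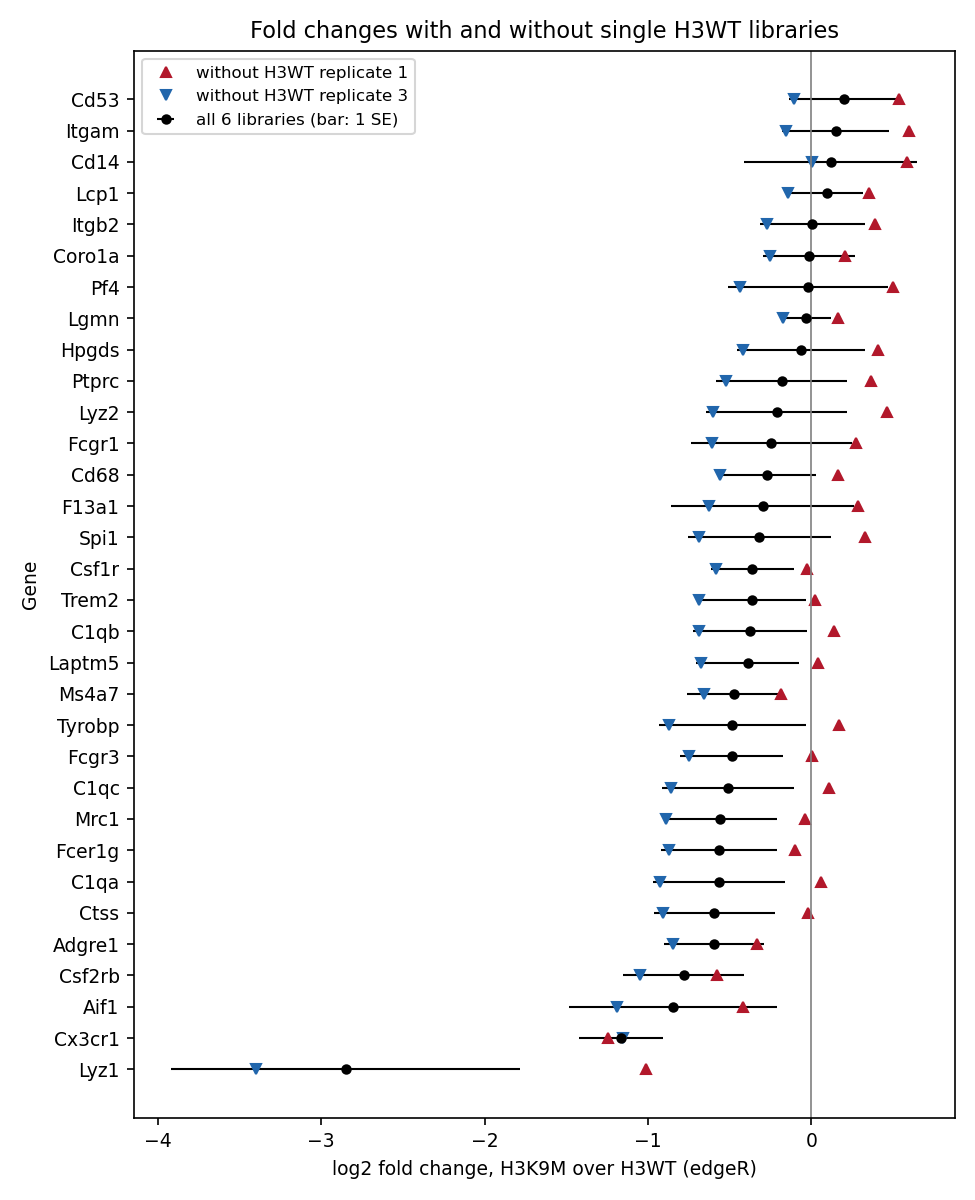
Log2 fold change of each marker gene, H3K9M over H3WT, from edgeR (horizontal axis), with all 6 libraries (black points, bars of 1 standard error), without H3WT replicate 1 (red triangles) and without H3WT replicate 3 (blue triangles). Most red triangles lie right of 0 and nearly all blue ones left of it, while the 3 symbols of Cx3cr1 lie together between -1.24 and -1.15.

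The pan-leukocyte genes showed the pattern at moderate levels. Ptprc, which encodes the CD45 phosphatase found on nucleated blood cells, stood at 5.99, 3.30 and 1.73 CPM in H3WT replicates 1, 2 and 3 and at 2.92, 3.64 and 3.14 CPM in H3K9M. Behind these values were 336 reads in H3WT replicate 1 (95% exact Poisson interval 301 to 374) and 118 in H3WT replicate 3 (97.7 to 141), so those 2 libraries of 1 group differed by more than counting error, which is all these intervals cover. The groups overlapped, and the log2 fold change was -0.18 ± 0.40 (SE) with an edgeR adjusted p of 0.870. Laptm5, a lysosomal membrane protein of blood cells, was at 34.6, 20.8 and 12.9 CPM in H3WT and at 14.3, 16.2 and 21.6 CPM in H3K9M. Lcp1, the actin-bundling protein L-plastin, ranged less, from 17.5 to 35.9 CPM in H3WT and from 27.8 to 30.6 CPM in H3K9M. The other 3 were Cd53, a tetraspanin, Coro1a, an actin regulator, and Itgb2, the beta-2 integrin chain. Their highest H3WT value was 1.99 to 2.66 times the lowest, with H3K9M means of 4.63, 3.78 and 6.45 CPM. In these 6 genes 3 log2 fold changes were negative and 3 positive, between -0.39 for Laptm5 and 0.20 for Cd53.

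Among the lineage factor and the receptors for growth factors and chemokines, 1 gene did not follow the common order. Spi1 itself was at 7.36, 3.66 and 1.79 CPM in H3WT and at 3.33, 3.90 and 3.02 CPM in H3K9M (-0.32 ± 0.44 on the log2 scale, edgeR adjusted p = 0.782). Csf1r was at 25.4, 16.4 and 11.9 CPM in H3WT and 12.8, 12.5 and 16.5 CPM in H3K9M (-0.36 ± 0.25, edgeR adjusted p = 0.531). Both were highest in H3WT replicate 1, lowest of the H3WT libraries in replicate 3, and overlapped between groups. Csf2rb, the common beta chain of the GM-CSF, IL-3 and IL-5 receptors, was at 4.99, 4.52 and 2.35 CPM in H3WT and 1.64, 3.32 and 1.92 CPM in H3K9M (-0.78 ± 0.37, edgeR adjusted p = 0.343). Of the 50-base words of its transcripts 12.3% also occur in another gene, chiefly its neighbour Csf2rb2, so its counts are uncertain to that extent.

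Cx3cr1, the fractalkine receptor, which marks tissue macrophages and patrolling monocytes, was the 1 gene of the 32 whose groups did not overlap, where 11.3% of tested genes were lower in H3K9M without overlap. It stood at 3.14, 3.84 and 3.58 CPM in H3WT replicates 1, 2 and 3 and at 1.69, 1.79 and 1.22 CPM in H3K9M. The H3WT values were close to each other, with a highest-to-lowest ratio of 1.22 against 1.86 or more for every other marker except Lgmn, at 1.58, and H3WT replicate 1 was the lowest of the 3. The log2 fold change was -1.16 ± 0.26 with an edgeR adjusted p of 0.0661, which misses the threshold. DESeq2 gave an adjusted p of 0.00181, and limma-voom gave 0.0766. Leaving out single libraries gave log2 fold changes from -1.28 to -1.01 and edgeR adjusted p-values from 0.0965 to 0.239. The authors' deposited table gives Cx3cr1 a log2 fold change of -0.78 with an adjusted p of 0.345. Measured against the median of the 32 genes in each library, Cx3cr1 was lower in H3K9M by -0.96 on the log2 scale, the largest such difference after Lyz1. The gene spans chr9:119901616-120069879 on GRCm38 (GENCODE M21), minus strand, and 1.7% of its exon bases overlap a gene on the other strand, Gm33858.

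**Figure D3:**
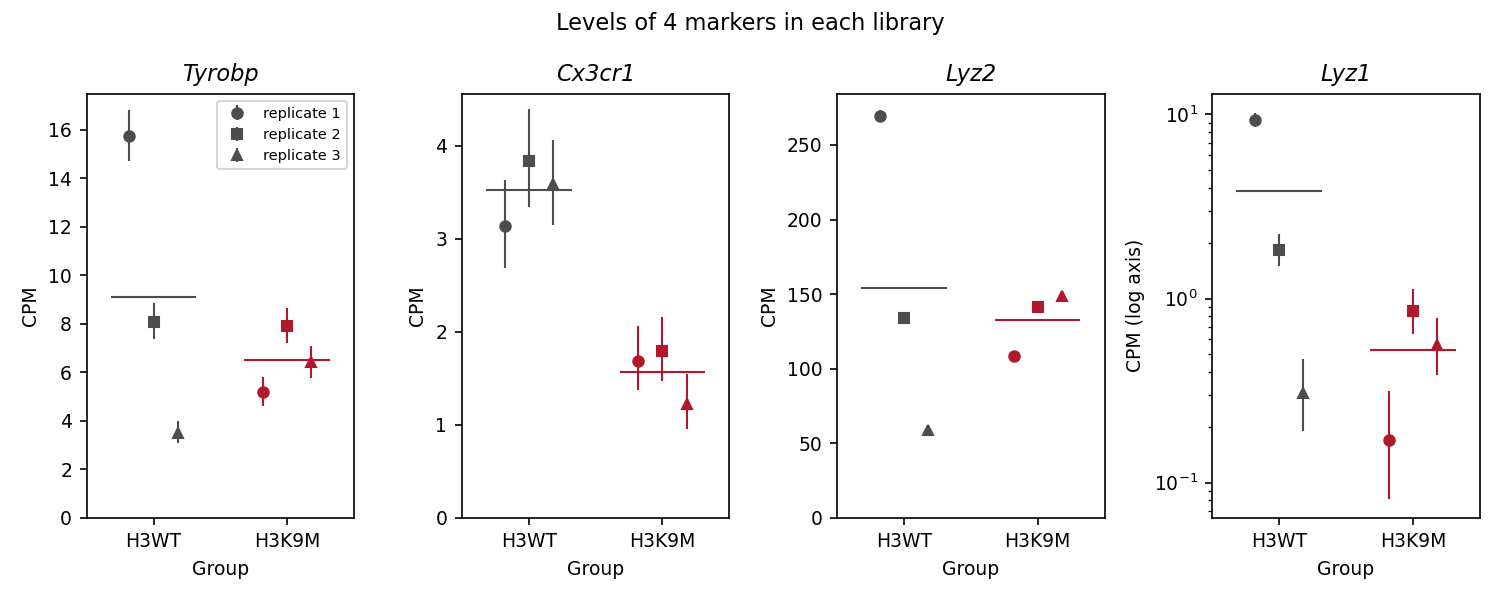
Level in CPM (vertical axes; the axis of Lyz1 is logarithmic) of 4 marker genes in H3WT (grey) and H3K9M (red), 1 symbol per replicate, with exact Poisson 95% intervals of the counts as bars and group means as horizontal lines. Tyrobp and Lyz2 spread widely in H3WT around the H3K9M values, Cx3cr1 separates the groups, and Lyz1 spans from 0.171 to 9.37 CPM.

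The surface receptors that recognise microbes and debris were at low to middle levels. Mrc1, the mannose receptor, was at 32.5, 18.1 and 10.0 CPM in H3WT and at 12.6, 13.2 and 15.2 CPM in H3K9M (-0.56 ± 0.35, edgeR adjusted p = 0.479). Trem2, a lipid-sensing receptor that signals through TYROBP, was at 13.5, 9.46 and 4.58 CPM in H3WT and at 6.95, 7.32 and 7.10 CPM in H3K9M. The H3K9M values of Trem2 were nearly equal, with a ratio of 1.05, and lay within the H3WT range. Adgre1, which encodes the F4/80 antigen, was at 12.5, 9.91 and 5.82 CPM in H3WT and at 4.27, 6.63 and 7.78 CPM in H3K9M (-0.60 ± 0.31, edgeR adjusted p = 0.387). Itgam, the CD11b integrin chain, ranged from 3.85 to 11.0 CPM in H3WT and from 7.36 to 8.69 CPM in H3K9M. Of its exon bases, 68.7% also belong to Gm49368, a gene model on the same strand that shares its exons. Cd14, the co-receptor for bacterial lipopolysaccharide, which cells other than macrophages also express, did not follow the common order. It was at 1.73, 0.667 and 0.926 CPM in H3WT and at 1.08, 1.91 and 0.611 CPM in H3K9M, with its highest value in H3K9M replicate 2.

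The Fc receptors and their signalling adaptors shared 1 order of H3WT libraries. Tyrobp, the DAP12 adaptor, was at 15.7, 8.09 and 3.51 CPM in H3WT and at 5.17, 7.92 and 6.40 CPM in H3K9M (-0.48 ± 0.45, edgeR adjusted p = 0.652). The counts were 883 (826 to 943) in H3WT replicate 1 and 239 (210 to 271) in H3WT replicate 3. Over the 6 libraries its log2 CPM had a Pearson correlation of 0.997 with the mean of the other markers, the closest of the 32. This value only describes the 6 libraries and carries no test. Fcer1g, the common gamma chain, was at 13.9, 8.18 and 4.77 CPM in H3WT and at 4.59, 7.21 and 6.28 CPM in H3K9M. Fcgr3, a low-affinity IgG receptor, ranged from 6.32 to 16.4 CPM in H3WT and from 6.73 to 7.98 CPM in H3K9M, and shares 9.6% of its 50-base words with Fcgr2b. Fcgr1, the high-affinity IgG receptor, ranged from 0.735 to 2.71 CPM in H3WT and from 0.922 to 1.73 CPM in H3K9M. All 4 genes had negative log2 fold changes, from -0.57 to -0.24, and none passed.

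The 3 chains of complement C1q, which start the classical complement pathway, lie side by side on chromosome 4, with C1qb at chr4:136880129-136886187, C1qc at chr4:136889804-136893065 and C1qa at chr4:136895917-136898803 on GRCm38. C1qa was at 58.6, 29.6 and 15.1 CPM in H3WT and at 18.5, 27.5 and 23.6 CPM in H3K9M (-0.57 ± 0.40, edgeR adjusted p = 0.541). C1qb was at 49.2, 26.9 and 16.1 CPM in H3WT and at 19.0, 28.2 and 23.7 CPM in H3K9M. C1qc was at 70.8, 35.1 and 19.3 CPM in H3WT and at 21.0, 34.4 and 32.3 CPM in H3K9M. The 3 chains kept the same order of libraries within each group, highest in replicate 1 and lowest in replicate 3 of H3WT, and highest in replicate 2 and lowest in replicate 1 of H3K9M. Scaled to exon length, their mean levels over the 6 libraries were 27.7, 25.0 and 18.4 RPKM (CPM per kilobase of exon) for C1qa, C1qb and C1qc.

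The lysosomal and antibacterial genes held the highest levels. Lyz2, the lysozyme of macrophages, had the highest level per length at 109 RPKM, followed by Lgmn, the lysosomal protease legumain, at 78.6 RPKM. Lyz2 was at 269, 134 and 59.2 CPM in H3WT and at 108, 141 and 149 CPM in H3K9M (-0.21 ± 0.43, edgeR adjusted p = 0.858). Its highest H3WT value was 4.55 times the lowest, and the H3K9M values lay within that range. Lgmn, which many cell types express, was at 232, 175 and 147 CPM in H3WT and at 164, 184 and 193 CPM in H3K9M. Its SE of 0.15 around a log2 fold change of -0.03 was the smallest of the 32. Ctss, the cathepsin S of antigen-presenting cells, was at 65.3, 32.5 and 20.2 CPM in H3WT and at 19.5, 28.1 and 30.5 CPM in H3K9M. Cd68, a lysosomal membrane protein of phagocytes, ranged from 16.8 to 45.7 CPM in H3WT and from 23.3 to 26.2 CPM in H3K9M.

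Lyz1, the lysozyme best known from Paneth cells of the gut, lies next to Lyz2 on chromosome 10, at chr10:117287797-117292868 against chr10:117277331-117282321 for Lyz2 on GRCm38. It had the widest range of the 32 genes. The counts were 526, 102 and 21 in H3WT replicates 1, 2 and 3 and 10, 52 and 32 in H3K9M, or 9.37, 1.84 and 0.309 CPM and 0.171, 0.856 and 0.558 CPM. As a share of the Lyz2 count this was 3.48%, 1.37% and 0.521% in H3WT and 0.158%, 0.606% and 0.375% in H3K9M, so the 2 genes were not in a constant ratio. The groups overlapped, and the log2 fold change of -2.85 ± 1.07 had an edgeR adjusted p of 0.234. Without H3WT replicate 1 the value was -1.01, with an adjusted p of 0.681. In the authors' deposited table the same gene has a log2 fold change of 2.98 with an adjusted p of 0.0353, which is the opposite sign.

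The authors' deposited table gives Lyz1 a mean normalised count of 11.0, which is 8.92% of its mean count of 124 in the count table. Over the 14315 tested genes present in both tables the median of this percentage is 25.2, and the 5th and 95th percentiles are 22.1 and 33.3. Lyz1 therefore lies outside the range of most genes. Of 589 genes called in the authors' deposited table and tested here, 2 have the opposite sign here, Lyz1 and Krr1, the second named after its values were seen. Of the other markers in that table none passes its threshold, where it calls 1.8% of genes higher and 2.3% lower. Of the 31 markers it holds, 25 have a negative log2 fold change there, and 26 have the same sign as here. Besides Lyz1, the sign differs for Itgam, Pf4, Coro1a and Itgb2, all between -0.09 and 0.15 in both sources. How reads that fit both lysozyme genes were assigned is not given in the sources used here, and its part in the difference was not tested.

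Lyz1 and Lyz2 coding sequences are both 447 bases long and differ at 22 of them, which is 95.1% identity. Their transcripts in GENCODE M21 share a run of 118 identical bases, and 16.1% of the 50-base words of Lyz1 also occur in Lyz2. The first 150 coding bases of each are shown, 5′ to 3′, because they hold 14 of the 22 differences, which are in capitals.
Lyz1: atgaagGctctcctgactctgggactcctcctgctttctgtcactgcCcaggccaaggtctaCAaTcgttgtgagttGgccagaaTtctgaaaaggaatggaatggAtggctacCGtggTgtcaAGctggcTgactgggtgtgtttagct
Lyz2: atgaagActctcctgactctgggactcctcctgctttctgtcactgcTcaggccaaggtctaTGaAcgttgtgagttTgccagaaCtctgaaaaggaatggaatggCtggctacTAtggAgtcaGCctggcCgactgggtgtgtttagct
A read that lies wholly within lower-case letters fits both genes, and a read across a capital fits 1 of them better.

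The remaining markers were at low levels. Pf4, a chemokine of platelets that resident macrophages also express, was at 3.40, 2.23 and 0.720 CPM in H3WT and at 2.36, 1.76 and 2.13 CPM in H3K9M. Hpgds, the haematopoietic prostaglandin D synthase, was at 6.40, 4.07 and 1.84 CPM in H3WT and at 3.86, 4.31 and 3.56 CPM in H3K9M. For both genes the H3K9M values lay within the H3WT range. Ms4a7, a membrane protein of macrophages, was at 6.70, 4.41 and 3.60 CPM in H3WT and at 2.72, 4.34 and 3.51 CPM in H3K9M. F13a1, the A chain of coagulation factor XIII, ranged from 0.367 to 1.23 CPM in H3WT and from 0.478 to 0.785 CPM in H3K9M. Aif1, the calcium-binding protein IBA1, was the second lowest per length, with 11 to 29 counts in each library, and is not in the authors' deposited table.

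A list of further myeloid genes, outside the 34 markers, showed the same order of libraries for most of its genes, and other lists did so less. H3WT replicate 1 was the highest H3WT library for 50 of the 61 tested, beside 36.9% of tested genes. H3WT replicate 3 was the lowest for 52, beside 37.3%. Replicate 1 was the highest H3WT library for 6 of 8 resident macrophage genes, 7 of 12 myeloid transcription factors and 2 of 7 monocyte genes. Replicate 3 was the lowest for 6, 8 and 3 of these. The next values are those of the 61 further myeloid genes. None passed in edgeR in either direction, and limma-voom called 0. At an unadjusted p under 0.05, 2 were higher and 5 lower, beside 7.78% and 8.61% of tested genes, and DESeq2 called 1 higher and 3 lower, beside 3.35% and 3.84%. These counts were near the background. Their median log2 fold change was -0.23, with 44 negative, and 0.08, with 27 negative, without H3WT replicate 1. Gpnmb, a lysosomal glycoprotein of macrophages, was at 463, 267 and 155 CPM in H3WT and at 204, 239 and 262 CPM in H3K9M. The groups of Cd48 did not overlap, where 11.3% of tested genes were lower in H3K9M without overlap. Cd48, an adhesion receptor of leukocytes, went from 1.69 ± 0.840 to 0.358 ± 0.0974 CPM (-2.23 ± 0.52, edgeR adjusted p = 0.0761).

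**Figure D4:**
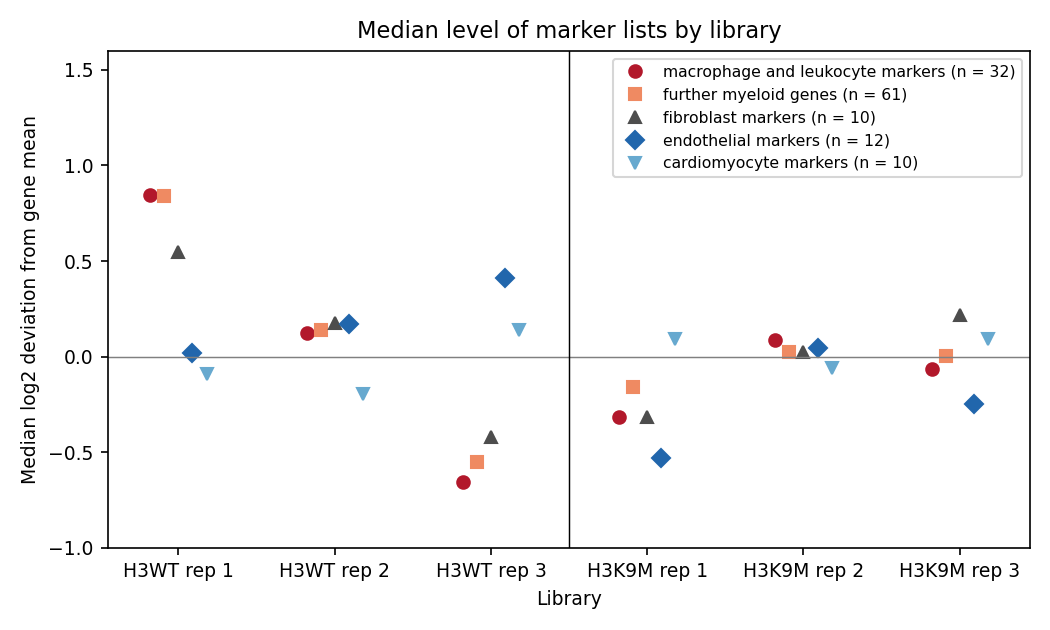
Median, over the tested genes of a list, of log2 CPM minus the mean of the gene over the 6 libraries (vertical axis), in each library (horizontal axis), for 5 marker lists given by colour and symbol, with symbols of 1 library set side by side. The macrophage and leukocyte markers stand at 0.84 in H3WT replicate 1 and -0.65 in H3WT replicate 3, the further myeloid and fibroblast lists have the same order within H3WT, and the cardiomyocyte list stays between -0.20 and 0.14.

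Markers of other cell types moved with these values in part. The fibroblast list had median deviations of 0.55, 0.18 and -0.42 in H3WT replicates 1, 2 and 3. In H3K9M they were -0.32, 0.02 and 0.22. H3WT replicate 1 was the highest H3WT library for 7 of the 10 fibroblast genes and H3WT replicate 3 the lowest for 8, beside 36.9% and 37.3% of tested genes. Their median log2 fold change was -0.28, with 6 negative. In edgeR Ddr2 alone passed, higher in H3K9M (0.66 ± 0.10, edgeR adjusted p = 0.0210), beside 0.935% of tested genes. Limma-voom also called Ddr2 alone, beside 0.745%, and DESeq2 called Ddr2 and Thy1 higher, beside 3.35%. No fibroblast gene passed in edgeR without H3WT replicate 2 or without any 1 H3K9M library. Endothelial markers had the reverse order in H3WT, at 0.02, 0.17 and 0.41, and stood at -0.53, 0.05 and -0.25 in H3K9M. Their median log2 fold change was -0.55, with 10 of 12 negative. In edgeR 1 of the 12, Nos3, the endothelial nitric oxide synthase, fell, from 9.62 ± 1.42 to 4.75 ± 0.995 CPM (-1.02 ± 0.20, edgeR adjusted p = 0.0444), and it did not pass without any single library (0.0753 to 0.126). At an unadjusted p under 0.05, 6 were lower and 0 higher, beside 8.61% and 7.78% of tested genes, and DESeq2 called 3 lower, beside 3.84%. The endothelial list was thus lower in H3K9M along with Cx3cr1, and its part in that difference was not tested. The summed cardiomyocyte markers lay between 25766 and 31758 CPM in the 6 libraries, and their median deviations between -0.20 and 0.14. The part of these other cell types in the spread of the macrophage markers was not tested.

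Resident macrophage genes and myeloid transcription factors gave 0 edgeR calls among 8 and 12 tested genes. At an unadjusted p under 0.05, 4 genes of each list were lower and 1 transcription factor was higher, beside 8.61% lower and 7.78% higher among all tested genes. DESeq2 called 2 resident macrophage genes and 1 transcription factor lower, beside 3.84% of its genes, and limma-voom called 0. Stab1, a scavenger receptor of resident macrophages that endothelial cells share, went from 79.8 ± 21.1 to 52.9 ± 3.33 CPM (-0.59 ± 0.16, edgeR adjusted p = 0.116). Fli1, a transcription factor of blood and endothelium, went from 29.6 ± 3.91 to 20.1 ± 3.07 CPM (-0.56 ± 0.14, edgeR adjusted p = 0.0910). Both were lower in every H3K9M library than in any H3WT library, as were 11.3% of tested genes. Endothelial cells express both genes, and the part of the lower endothelial markers in these values was not tested.

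Among 10 tested genes for ligands and supporting signals of macrophages, 2 fell and 0 rose in edgeR's test, which called 1.05% of tested genes lower and 0.935% higher. The first was Cx3cl1, which encodes fractalkine, the ligand of the receptor encoded by Cx3cr1. It stood at 28.7, 37.5 and 42.1 CPM in H3WT replicates 1, 2 and 3 and at 22.0, 16.3 and 19.0 CPM in H3K9M. The groups did not overlap, where 11.3% of tested genes were lower in H3K9M without overlap. The log2 fold change was -0.92 ± 0.16 (edgeR adjusted p = 0.0344). Leaving out H3WT replicate 2 raised the edgeR adjusted p to 0.133, and leaving out single H3K9M libraries raised it to 0.0506 (replicate 1), 0.117 (replicate 2) and 0.108 (replicate 3), at log2 fold changes of -1.04 to -0.82. The second was Cxcl12, a chemokine that retains blood cells in tissues, at 330, 251 and 242 CPM in H3WT and at 131, 129 and 71.4 CPM in H3K9M (-1.31 ± 0.23, edgeR adjusted p = 0.0313). Leaving out H3WT replicate 1 or 2 gave edgeR adjusted p-values of 0.0533 and 0.109, and leaving out H3K9M replicate 1 or 2 gave 0.0566 and 0.0823. Csf1, the growth factor of macrophages, was at 383, 567 and 559 CPM in H3WT and at 1097, 602 and 730 CPM in H3K9M (0.69 ± 0.23, edgeR adjusted p = 0.182). It was higher in every H3K9M library than in any H3WT library, as were 11.3% of tested genes, and did not pass.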

How the data were processed

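The read counts per gene of 6 libraries, 3 H3WT and 3 H3K9M, were used as the authors deposited them. HISAT2, featureCounts, DESeq2 and mm10 are named in the submitters' processing notes, with versions and strand setting not given in the sources used here. Per its file header, the authors' deposited comparison table holds a mean normalised count (a signal value), log2 fold changes and their errors, a Wald score that was not used, and p-values, raw and adjusted. Which counts entered that table is not stated.

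Library totals ran from 55550379 to 67994773 counts. Genes were kept by edgeR's filterByExpr (minimum count 10, minimum total 15), which left 14758 of 15159. edgeR 4.0.16 (R 4.3.3), by its quasi-likelihood test with TMM factors and a 2-group design, compared H3K9M with H3WT, and p-values were adjusted by Benjamini-Hochberg over all tested genes at 0.05. The fit was tested on simulated counts. With 3 libraries in each group an exact permutation test cannot go below p = 0.1, so none is given. CPM used TMM-scaled totals, RPKM divided CPM by exon length from GENCODE M21 on GRCm38, the assembly of mm10, and log2 CPM used a prior count of 2. Intervals of counts are exact Poisson at 95% and cover counting error only. Alternatives were DESeq2 1.42.0, limma-voom (limma 3.58.1), RLE factors, library totals alone, no filter, a filter of 1 CPM in 3 libraries, a replicate block, and each library left out in turn.

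The 34 markers and the other gene lists were chosen with earlier results of these data known. The genes named outside the markers were, of each other list, at most the 2 with the highest mean CPM and the 2 with the smallest p, and the 10 whose log2 CPM was most alike to the mean of the standardised markers. A gene that this rule selects may be left out and is then not reported here. Titles of both replicate 2 libraries lack a word for the soft substrate that the others carry, although their protocol text is the same. Both replicate 1 titles, that of H3WT replicate 1 among them, lack the tag D4 that the others carry. An M number in the titles is shared by the groups for replicates 1 and 3 and differs for replicate 2, and the titles do not explain it. The part of these label differences in the values was not tested.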

Additional observations from a re-analysis of the deposited data

How the results depend on the processing

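The 32 markers gave 0 calls under every alternative run except DESeq2, which called 1 lower, Cx3cr1. Over all tested genes DESeq2 called 475 higher and 544 lower, against 138 and 155 in edgeR. Leaving out single libraries gave 30 to 149 higher and 30 to 223 lower. Same-numbered libraries had correlations of deviations from the group mean of -0.157, 0.0346 and -0.0694. Such deviations sum to 0 within a group, so these values cannot decide whether same-numbered libraries share a preparation. Only H3WT replicate 2 correlated best with the library of its own number in the other group. A replicate block left 31 genes higher and 27 lower and no marker called.

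The median over the markers was -0.18 with 22 negative under limma-voom and -0.24 with 23 negative under the replicate block, against -0.36 with 27 negative in edgeR. Some markers near 0 changed sign. Under the replicate block the log2 fold changes were 0.034 for Lyz2, 0.19 for Pf4, 0.026 for Coro1a and 0.092 for Hpgds. Under limma-voom they were 0.045 for Ptprc, 0.032 for Lyz2, 0.30 for Pf4, 0.067 for Coro1a and 0.17 for Hpgds. The cause was not tested.

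Leaving out single libraries moved the median over the markers from -0.67 to 0.15 and the difference of the summed CPM from -0.53 to 0.19 on the log2 scale. The lowest values below came without H3WT replicate 3, except for Cd14 (without H3K9M replicate 2), and the highest without H3WT replicate 1. Log2 fold changes ran from -0.52 to 0.36 for Ptprc, -0.56 to 0.17 for Cd68, -0.40 to 0.59 for Cd14, -0.60 to 0.46 for Lyz2, -0.93 to 0.056 for C1qa, -0.69 to 0.14 for C1qb and -0.86 to 0.10 for C1qc. They ran from -0.61 to 0.27 for Fcgr1, -0.75 to 0.000421 for Fcgr3, -0.15 to 0.60 for Itgam, -0.87 to 0.17 for Tyrobp, -0.69 to 0.33 for Spi1, -0.68 to 0.041 for Laptm5, -0.11 to 0.53 for Cd53 and -0.14 to 0.35 for Lcp1. They ran from -0.44 to 0.50 for Pf4, -0.63 to 0.29 for F13a1, -0.18 to 0.16 for Lgmn, -0.69 to 0.022 for Trem2, -0.25 to 0.20 for Coro1a, -0.42 to 0.41 for Hpgds, -0.27 to 0.39 for Itgb2 and -0.64 to 0.15 for Gpnmb. Without H3WT replicate 1, some values that stayed negative shrank to -0.04 for Mrc1, -0.03 for Csf1r, -0.02 for Ctss and -0.10 for Fcer1g. The others that stayed negative were -1.24 for Cx3cr1, -1.01 for Lyz1, -0.58 for Csf2rb, -0.42 for Aif1, -0.34 for Adgre1 and -0.19 for Ms4a7. Depth limits the lowest genes most, such as Aif1 with 11 to 29 counts.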

Other observations

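Lists of other blood cells were thinly represented. Of 14 neutrophil genes 4 had a row, with summed levels of 1.33 to 2.29 CPM over the 6 libraries, and of 16 T and NK cell genes 4 had a row, with sums of 1.94 to 3.71 CPM. Of those 4, 3 had a positive log2 fold change, the median was 0.36, and none passed in edgeR. The 1 negative gene was Cd4. This co-receptor of helper T cells, which macrophages can also express, was at 0.659, 1.08 and 0.4995 CPM in H3WT and at 0.102, 0.0658 and 0.175 CPM in H3K9M (-2.69 ± 0.63 on the log2 scale, edgeR adjusted p = 0.0759). Those 3 H3K9M values come from 4 to 10 counts. Of 12 dendritic cell and MHC class II genes 5 had a row, and none passed in edgeR, DESeq2 or limma-voom. Of those 5, 2 had a negative log2 fold change, and the median was 0.23. Among them H2-Eb1, an MHC class II chain of antigen-presenting cells, was at 2.42, 1.53 and 1.13 CPM in H3WT and at 2.48, 3.27 and 2.81 CPM in H3K9M (0.75 ± 0.33, edgeR adjusted p = 0.306). Cd4 and H2-Eb1 separated the groups without passing in edgeR, in opposite directions, where 11.3% of tested genes did so in each direction.

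Of 10 mast cell genes 3 had a row, which leaves out Cpa3, Tpsb2, Cma1 and Ms4a2, and they did not share a direction. Kit, the stem cell factor receptor, fell from 12.8 ± 1.26 to 5.26 ± 1.68 CPM (SD, n = 3 each; -1.28 ± 0.24, edgeR adjusted p = 0.0386). It passed without H3K9M replicate 1 and did not pass without any other single library (edgeR adjusted p = 0.0590 to 0.130). Mcpt4, a mast cell protease, was at 0.552, 0.288 and 0.558 CPM in H3WT and at 1.91, 1.25 and 0.646 CPM in H3K9M (1.44 ± 0.53, edgeR adjusted p = 0.226). Of 7 monocyte genes tested 4 had a positive log2 fold change, with a median of 0.21. At an unadjusted edgeR p under 0.05, 1 was higher and 2 were lower, beside 7.78% and 8.61% of tested genes. DESeq2 called 1 higher and 2 lower, beside 3.35% and 3.84% of its genes. Vcan, the proteoglycan versican that mesenchymal cells also make, fell from 333.9 ± 23.0 to 173 ± 17.9 CPM (-0.95 ± 0.10, edgeR adjusted p = 0.00503), and passed without each library in turn.

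Over the 6 libraries, the genes outside the markers whose log2 CPM ran closest to the mean of the standardised markers were Rnf181 (Pearson r = 0.995), Zeb1 (0.990), Lrrc25 (0.990), Chsy3 (0.988), Tapbp (0.985), Gpnmb (0.985), Col28a1 (0.984), Vwa5a (0.981), Yipf2 (0.981) and Ptpn6 (0.981). Of 12872 genes compared, 71 had an r over 0.95. These values describe 6 libraries and carry no test. An r takes no account of how large the differences are. Rnf181 ran only from 75.4 to 91.5 CPM and Zeb1 from 103 to 127 CPM, while Col28a1 ran from 1.57 to 19.8 CPM. Among the markers the r with the mean of the others was 0.741 for Csf2rb, 0.405 for Cd14 and 0.109 for Cx3cr1.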
